A study of Mus musculus with 2 samples.

Results

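Glycolysis turns glucose into pyruvate and lactate, and the pentose phosphate pathway branches from it to make NADPH and ribose. Most steps can be run by several isozymes, closely related proteins that are encoded by separate genes and differ in control and in the tissues that use them. Red cells have no mitochondria once mature, so they draw their ATP from glycolysis, and they divert an intermediate of it to 2,3-bisphosphoglycerate, which lowers the oxygen affinity of haemoglobin. The genes described here are 39 glucose and lactate transporters, glycolytic and pentose phosphate enzymes and their regulatory kinases, chosen by gene symbol in the platform annotation. Of these, 34 had a probe set of their own among 18193 genes, with 75 probe sets in all.

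The first sample held Ter119+ CD45- spleen cells, called CD45-negative cells here, where Ter119 marks the red cell lineage and CD45 the white cells. The second held CD45+ spleen cells of the same animals as the control, called CD45-positive cells, and the labels leave unsaid whether Ter119 entered that gate. All animals were C57BL/6 mice that carried hepatocellular carcinoma, and the way the tumours arose, the animals' age and any pooling of animals are not stated either. Each group had 1 array, so no difference could be tested, no p-value is given, and a value reads as a difference between these samples.

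The unit is a linear probe set intensity, and a difference is the log2 intensity in CD45-negative cells minus that in CD45-positive cells. A gene was taken as measured above an intensity of 101.1, the 95th percentile of the intensities of 80 olfactory and vomeronasal receptor probe sets, and lower values were set to that level. The same percentile was 127.3 in the CD45-negative array alone, and a lower bound for a gene dim in those cells is taken against it. Different probe sets of the same gene gave differences with a pooled SD of 0.66 over 3608 genes, which is no replicate error. The sort markers fit the labels, which is a check and no finding. All 5 measured erythroid markers were at least 4-fold higher and all 6 white cell markers at least 4-fold lower in CD45-negative cells, with summed intensities of 302033 against 9936 and of 2986 against 135325. All 5 platelet and megakaryocyte markers were at least 4-fold higher too, at a sum of 32107 in CD45-negative and 1526 in CD45-positive cells, and their part in the results was not tested. Of 5 liver and tumour markers, Alb, Apoa1 and Ttr were under the level in both arrays. Apoa2 was above it in CD45-negative cells only, at 120.9 against 98.4, and Afp in CD45-positive cells only, at 42.4 against 125.5. In a sorted bulk sample, fewer cells of a type and less RNA per cell cannot be told apart.

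At 6 of the 10 steps with several measured isozymes, at least 1 isozyme was 2-fold or more higher and another 2-fold or more lower in CD45-negative cells. These were glucose uptake, hexokinase, phosphofructokinase, the phosphoglycerate mutases, pyruvate kinase and the pyruvate dehydrogenase kinases. Among all measured genes 16.8% were 2-fold higher and 33.3% lower, so a step with several genes can readily hold both. No such count was made for other gene families. Pyruvate kinase counts by the brightest probe set of Pklr, which was at 0.18 with the mean of its probe sets. Bpgm, Slc16a1, Slc2a4, Hk1 and Pfkm were the 5 members at least 4-fold higher. The 11 members at least 4-fold lower were Slc2a1, Hk2, Pfkp, Pfkfb3, Pfkfb4, Pgk1, Pgam1, Pkm, Ldha, Pgd and Pdk1. For Hk2 and Pfkfb3 this holds against the common level and not against the level of the CD45-negative array alone, with which 9 members were at least 4-fold lower. Pfkfb3 is counted by its brightest probe set, while its second gave -0.25. Of the 33 members measured in at least 1 array, the 5 and the 11 made up 15.2% and 33.3%, beside 8.31% higher and 16.8% lower among all 11793 measured genes. Past 2-fold, 8 members (24.2%) were higher and 16 (48.5%) lower, against 16.8% and 33.3% of all measured genes. With the level set in each array, 15 were lower, since Slc2a6 was then at -0.90. The members' median difference was -0.94, and that of all measured genes was -0.26. Of the 33, 27 were measured in both arrays, 2 only in CD45-negative and 4 only in CD45-positive cells, and the differences of these 6 are limited by the level. Among the 27, 5 were at least 4-fold higher and 9 lower, where all 8272 genes measured in both arrays gave 10.0% and 15.0%. At 2-fold, 7 of the 27 (25.9%) were higher and 13 (48.1%) lower, beside 19.6% and 32.2%.

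**Figure D1:**
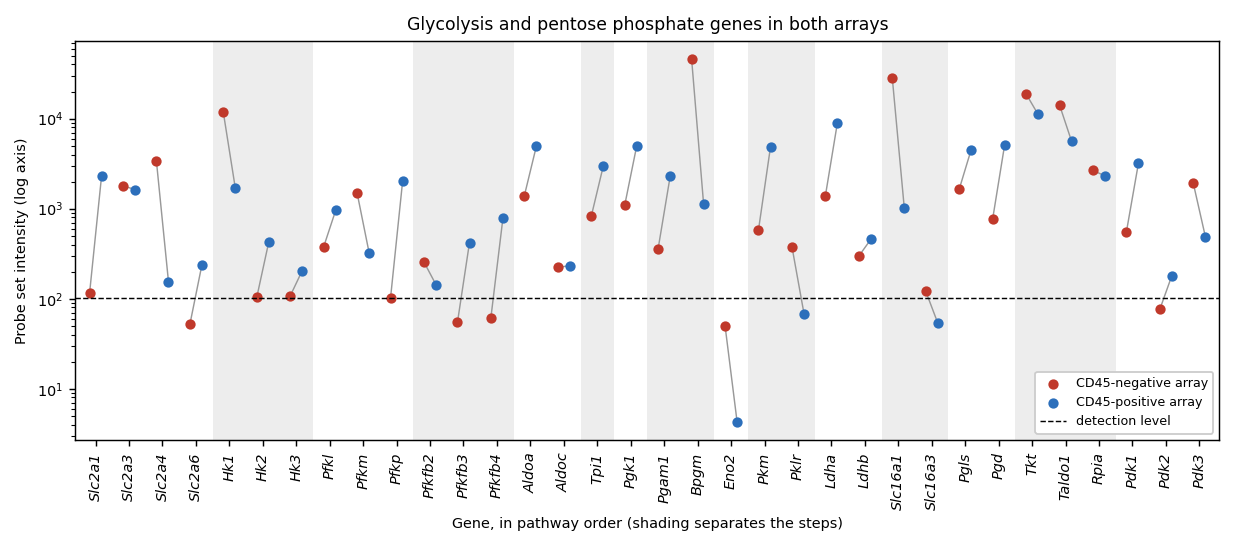
Intensity of the brightest probe set of each of the 34 genes in the CD45-negative array (left point of each pair, red) and the CD45-positive array (right point, blue) on a log axis. Lines join the values of a gene, shading separates the steps, and the dashed line is the detection level of 101.1. Bpgm and Slc16a1 are the brightest in CD45-negative cells, at 46187 and 28417, and Tkt and Ldha in CD45-positive cells, at 11149 and 9027.

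**Figure D2:**
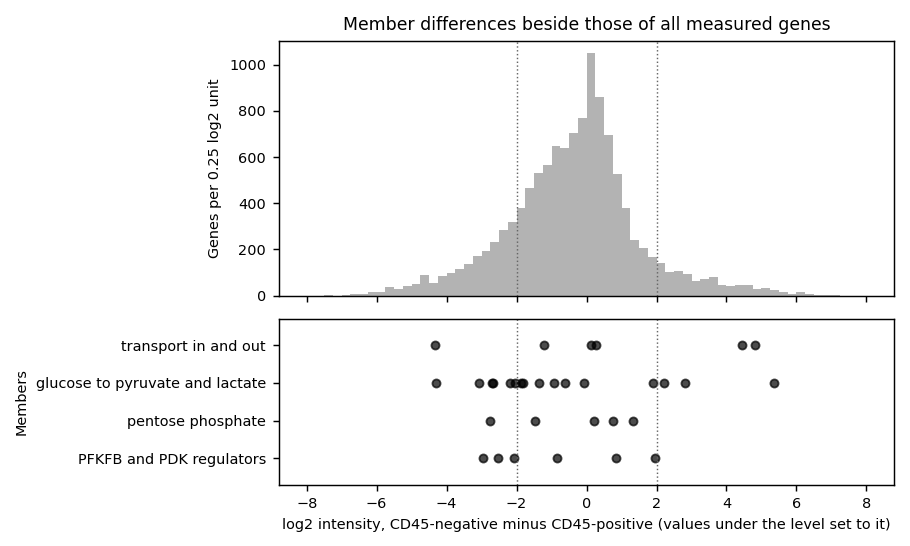
The upper panel counts all 11793 measured genes by their log2 difference, CD45-negative minus CD45-positive, in bins of 0.25. The lower panel shows the 33 measured members as points in 4 groups. Dotted lines mark 4-fold, and members reach from -4.34 (Slc2a1) to 5.37 (Bpgm), with genes of every group on both sides of 0.

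The sequence before the start of transcription is shown for the members on which the comparison turns, since regulatory proteins of red cells and of low oxygen are known to act through short motifs. The windows are the 250 bases before annotated starts (RefSeq, GRCm38.p6), written 5′ to 3′ on the gene's own strand. Capitals mark GATAA, the core bound by GATA factors, and CCNCACCC, a CACCC box of the kind bound by Krüppel-like factors, on either strand. In the window of Ldha alone, capitals mark ACGTG, the core of the hypoxia response element, which also lies inside CACGTG, the E-box of Myc-like factors. Which start these cells use was not measured.
Bpgm, chr6:34476106-34476355, + strand: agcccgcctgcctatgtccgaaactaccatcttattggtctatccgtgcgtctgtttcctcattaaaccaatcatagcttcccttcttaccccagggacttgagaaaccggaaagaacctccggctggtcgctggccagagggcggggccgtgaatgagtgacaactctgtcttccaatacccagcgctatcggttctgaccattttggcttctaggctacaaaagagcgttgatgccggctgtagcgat
Slc16a1, chr3:104638414-104638663, + strand: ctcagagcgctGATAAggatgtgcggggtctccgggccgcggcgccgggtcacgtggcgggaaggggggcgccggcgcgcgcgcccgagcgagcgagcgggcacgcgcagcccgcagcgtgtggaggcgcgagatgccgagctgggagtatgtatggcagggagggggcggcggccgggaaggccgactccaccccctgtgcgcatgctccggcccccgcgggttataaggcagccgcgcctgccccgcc
Hk1, chr10:62379909-62380158, - strand: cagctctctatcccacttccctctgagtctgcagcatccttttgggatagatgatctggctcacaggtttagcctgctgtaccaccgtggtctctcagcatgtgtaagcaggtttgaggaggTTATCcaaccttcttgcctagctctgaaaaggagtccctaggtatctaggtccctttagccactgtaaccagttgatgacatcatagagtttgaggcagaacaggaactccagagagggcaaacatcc
Hk1, chr10:62340422-62340671, - strand: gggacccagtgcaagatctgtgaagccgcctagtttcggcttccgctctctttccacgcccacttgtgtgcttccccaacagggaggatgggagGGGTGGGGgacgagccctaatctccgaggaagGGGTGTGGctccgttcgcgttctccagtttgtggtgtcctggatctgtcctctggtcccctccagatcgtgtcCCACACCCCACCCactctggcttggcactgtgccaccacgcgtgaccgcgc
Pfkm, chr15:98092339-98092588, + strand: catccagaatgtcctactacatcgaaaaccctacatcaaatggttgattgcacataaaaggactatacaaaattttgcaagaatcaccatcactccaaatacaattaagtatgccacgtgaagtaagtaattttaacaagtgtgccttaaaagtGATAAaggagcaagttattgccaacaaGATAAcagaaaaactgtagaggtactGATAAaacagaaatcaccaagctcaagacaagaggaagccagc
Pklr, chr3:89135892-89136141, + strand: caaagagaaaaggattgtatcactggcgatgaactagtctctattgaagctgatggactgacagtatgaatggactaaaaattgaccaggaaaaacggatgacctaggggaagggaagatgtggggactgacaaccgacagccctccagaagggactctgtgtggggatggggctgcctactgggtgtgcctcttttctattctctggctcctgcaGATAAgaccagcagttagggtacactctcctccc
Ldha, chr7:46845554-46845803, + strand: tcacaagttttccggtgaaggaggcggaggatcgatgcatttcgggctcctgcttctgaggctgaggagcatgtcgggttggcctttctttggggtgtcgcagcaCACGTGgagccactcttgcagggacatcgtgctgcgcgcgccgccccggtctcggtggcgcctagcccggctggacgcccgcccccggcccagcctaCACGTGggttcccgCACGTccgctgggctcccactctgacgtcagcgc
The windows printed for Pfkm, Pklr and Ldha are those with the most matches among several annotated starts. The Pfkm window shown holds 3 GATAA, at 96, 69 and 43 bases before the start, and its 3 other windows hold 2, 1 and 0. The Pklr window shown holds 1 at 34 bases, and its other window holds 0. Pkm, the lower isozyme of that step, has 2 GATAA in 1 window, at 234 and 31 bases, and 2 CACCC boxes in its other. Aldoa, lower past 2-fold, has 2 of each motif in 1 window. One window of Hk1 has 4 CACCC boxes and the other a single GATAA, while that of Bpgm has neither motif. GATAA lies in 5 of 8 windows of the 4-fold higher members (62.5%, Slc2a4 being named only), of which 3 are windows of Pfkm. It lies in 2 of 16 windows of the 4-fold lower members (12.5%), in 20.7% of the 58 windows of all members and in 22.6% of all 32851 windows. The Ldha window shown has 5 matches to ACGTG over both strands, of which 4 are the paired readings of E-boxes, and its other window has 0. ACGTG lies in 8 of 16 windows of the 4-fold lower members (50.0%), in 3 of 8 of the higher ones (37.5%), in 32.8% of those of all members and in 16.6% of all windows. CCNCACCC lies in 2 of 8 windows of the higher members (25.0%), 3 of 16 of the lower (18.8%), 17.2% of those of all members and 14.9% of all. These are matches of letters in windows of a few genes, and overlapping starts of Pfkm share sequence.

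Glucose enters cells through transporters of the Slc2a family. Slc2a4 (GLUT4), best known as the insulin-responsive transporter of muscle and fat and also found in red cell precursors of mice, had an intensity of 3364 in CD45-negative cells against 155.0 in CD45-positive cells. It was 21.7-fold higher (4.44), and its second probe set, at 1919 against 33.5, went the same way. Slc2a1 (GLUT1), the widespread basal transporter, had 114.3 in CD45-negative and 2314 in CD45-positive cells. That is at least 18.2-fold lower by its brightest probe set, and its 3 probe sets ran from -4.50 to -2.74. The probe set at -2.74 had 92.9 against 619.6, so this bound does not hold for the gene. The 2 transporters thus stood on opposite sides. By the brightest probe sets, the ratio of Slc2a4 to Slc2a1 was at least 395-fold higher in CD45-negative cells (8.62). This pair was added after seeing values, and its bound depends on the level and the probe sets. The contrast was 8.24 with the 99th percentile as the level and 8.31 with the mean of probe sets.

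Slc2a3 (GLUT3), a high-affinity transporter of neurons, white cells and platelets, was near equal by its brightest probe set, at 1798 against 1632 (0.14). Its probe sets disagreed, since one that was above the level only in CD45-positive cells stood at 9.1 against 149.8 (-4.04), and their mean gave -0.72. Slc2a6, a transporter of macrophages, was under the level in CD45-negative cells, at 51.9 against 238.0.

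Hexokinase commits glucose to the cell by phosphorylating it. Hk1, the main hexokinase of red cells and brain, had 11753 in CD45-negative cells against 1679 in CD45-positive cells, a difference of 2.81. Its other probe set, at 6985 against 841.2, gave 3.05. Hk2, the isozyme of muscle and of activated and tumour cells, had 103.8 in CD45-negative and 429.1 in CD45-positive cells. Its call at 4-fold rests on the common level, and against the CD45-negative array's own level it was at least 3.37-fold lower. Hk3, a hexokinase of myeloid cells, had 107.4 against 205.4, and a probe set marked as prone to cross-hybridization stood at 16.6 against 466.1. The ratio of Hk1 to Hk2 was at least 23.6-fold higher in CD45-negative cells, and that of Hk1 to Hk3 at least 11.3-fold.

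Phosphofructokinase sets the pace of glycolysis and is built from 3 kinds of subunit. Pfkm, the muscle subunit, which red cells also use, had 1492 in CD45-negative cells against 322.4 in CD45-positive cells, 4.63-fold higher. Pfkl, the liver subunit, which is the partner of Pfkm in human red cells, had 377.3 against 960.2, 2.54-fold lower. Pfkp, the platelet subunit, had 102.7 against 2017 by its brightest probe set, at least 15.8-fold lower. The order of change among the 3 subunits was Pfkm, Pfkl, Pfkp, from higher to lower. The ratio of Pfkm to Pfkl was 11.8-fold higher in CD45-negative cells, and that of Pfkm to Pfkp at least 73.3-fold by the brightest probe sets. The size for Pfkp depended on the probe set. Another one, above the levels in both arrays, stood at 136.0 against 579.6 (-2.09), so neither bound holds for the gene. The mean over the 3 Pfkp probe sets was -2.45, and the contrast of Pfkm with Pfkp was then 4.66.

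The bifunctional Pfkfb enzymes make and break fructose 2,6-bisphosphate, the strongest activator of phosphofructokinase. Pfkfb4 was under the level in CD45-negative cells, at 61.8 against 789.2 in CD45-positive cells, at least 6.20-fold lower. Pfkfb3, the isozyme of highest kinase activity, had 54.7, under the level, against 420.4 by its brightest probe set. The difference of that probe set from the common level was -2.06, and from the CD45-negative array's own level it was -1.72, under 4-fold. Its second probe set stood at 124.9 against 148.8 (-0.25), and after quantile normalization, which made that probe set the brightest, the difference was 0.17, so no direction and no bound hold for the gene. Pfkfb2, the heart isozyme, had 255.1 in CD45-negative cells against 142.6 in CD45-positive cells by its brightest probe set (0.84). Another Pfkfb2 probe set, above the level only in CD45-positive cells, had 70.5 against 103.6 (-0.56). The rest passed the level in neither array, so no direction holds for the gene. Pfkfb1 had no probe set of its own name.

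Aldolase and the enzymes of the triose phosphates make up the middle of the pathway, and of the 4 measured here Aldoa, Tpi1 and Pgk1 were more than 2-fold lower in CD45-negative cells, Pgk1 alone past 4-fold, while Aldoc was near equal. Aldoa, the main aldolase of muscle and red cells, had 1394 in CD45-negative cells against 4963 in CD45-positive cells, 3.56-fold lower. All 5 of its probe sets are of the kind prone to cross-hybridization. Aldoc, the brain isozyme, was at 222.2 against 233.3 (-0.07, and 0.64 after quantile normalization). Tpi1, which interconverts the triose phosphates, had 822.8 against 2980, 3.62-fold lower, and its 3 probe sets ran from -1.98 to -1.45. Pgk1, the first step that yields ATP, had 1092 against 4999, 4.58-fold lower, with 3 probe sets between -2.40 and -2.14. Neither Gpi1 nor Eno1 had a probe set of its own name, and those of Gapdh carry several names and were not used here. Eno2, the neuronal enolase, did not pass the level in either array.

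The phosphoglycerate mutase step held the widest contrast of the 15 pairs with a value, those added after seeing values aside. Bpgm, whose enzyme makes 2,3-bisphosphoglycerate, had 46187 in CD45-negative cells against 1115 in CD45-positive cells, and its 3 probe sets gave 5.02, 5.37 and 5.49. Pgam1, the glycolytic mutase, had 360.6 against 2295, 6.37-fold lower. The ratio of Bpgm to Pgam1 was 264-fold higher in CD45-negative cells (8.04). Over the 9 alternative settings this contrast stayed between 7.64 and 8.17.

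Pyruvate kinase is encoded by Pklr, which gives the liver and red cell forms from separate starts, and Pkm, which gives the muscle and widespread forms by splicing. Pkm had 582.6 in CD45-negative cells against 4882 in CD45-positive cells, 8.38-fold lower, by a single probe set, and its splice forms were not told apart. Pklr had 378.3 in CD45-negative cells and 68.4, under the level, in CD45-positive cells, at least 3.74-fold higher. A second Pklr probe set agreed in direction, at 277.3 against 74.0, and the third was dark in both arrays, at 14.3 and 17.3. The ratio of Pklr to Pkm was at least 31.3-fold higher in CD45-negative cells. Averaging the 3 Pklr probe sets left it at 0.18 and the contrast at 3.25.

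Lactate dehydrogenase turns pyruvate to lactate. Ldha, the muscle-type subunit, had 1391 in CD45-negative cells against 9027 in CD45-positive cells, 6.49-fold lower. Ldhb, the heart-type subunit, which is abundant in human red cells, had 297.6 against 457.3 (-0.62, and 0.12 after quantile normalization). Its other 3 probe sets, under the level in CD45-negative cells, ran from -6.96 to -2.16. The contrast of Ldha with Ldhb was -2.08 by the brightest probe sets and -1.08 with the mean of probe sets, so its size is not settled.

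Lactate leaves through proton-coupled carriers. Slc16a1 (MCT1), the lactate carrier of red cells, had 28417 in CD45-negative cells against 1007 in CD45-positive cells, 28.2-fold higher. Its second probe set, at 251.7 against 8.8, gave 4.84, close to the 4.82 of the first. Slc16a3 (MCT4), the exporter of strongly glycolytic cells, had 121.2 in CD45-negative cells, below that array's own level, and at 53.7 in CD45-positive cells, so no direction holds for it. Bsg, which encodes basigin, the chaperone that brings both carriers to the cell surface, had 38256 against 3236, 11.8-fold higher.

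**Figure D3:**
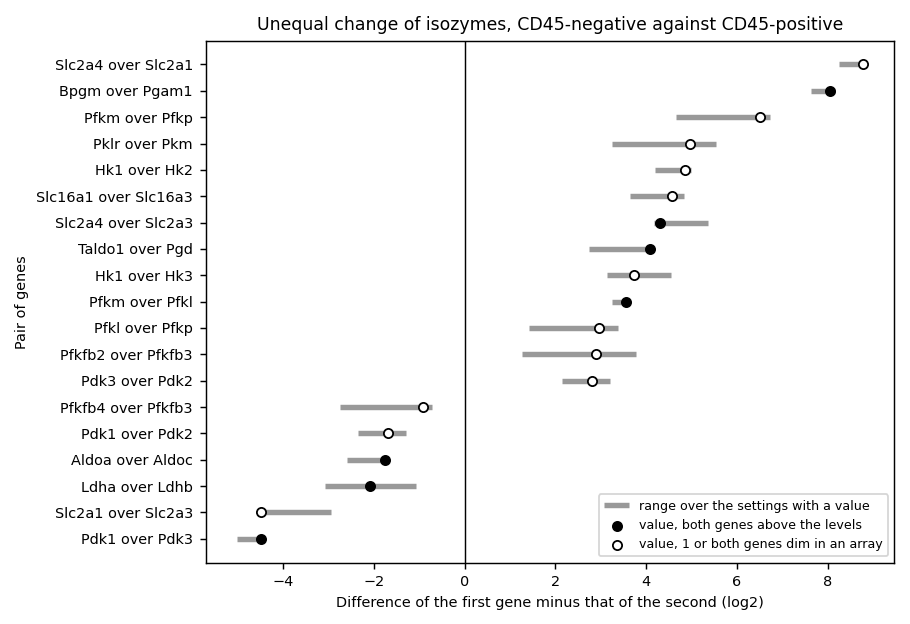
Each row is a pair of genes, and the x axis gives the log2 difference (CD45-negative minus CD45-positive) of the first minus that of the second. Filled points have both genes above the levels, open points have a gene dim in an array, and grey bars span those of the 10 settings that gave a value, which were all 10 for 14 of the 19 pairs. The pairs reach from -4.50 (Pdk1 over Pdk3) to 8.78 (Slc2a4 over Slc2a1), and no bar crosses 0.

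In the oxidative branch of the pentose phosphate pathway, which makes NADPH, Pgls had 1642 in CD45-negative cells against 4541 in CD45-positive cells, 2.77-fold lower. Pgd, the second NADPH-making enzyme, had 765.4 against 5136, 6.71-fold lower, and its 4 probe sets all ran lower. Its only probe set not prone to cross-hybridization, at 613.4 against 1611, gave -1.39, under 4-fold. G6pdx, the entry enzyme, had no probe set of its own name.

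The non-oxidative branch exchanges sugars with glycolysis, and of its 3 measured members Taldo1 passed 2-fold. Taldo1, the transaldolase, had 14204 in CD45-negative cells against 5626 in CD45-positive cells, 2.52-fold higher (1.34) by its only probe set, and 0.82 after quantile normalization. Tkt, the transketolase, had 18865 against 11149 (0.76) and 4740 against 4190 (0.18) by its bright probe sets, while a dim one gave -3.15. The mean of the 3 probe sets was -0.74 and the value after quantile normalization 0.10, so no direction holds for Tkt. Rpia, which makes ribose 5-phosphate, had 2663 against 2315 (0.20). The contrast of Taldo1 with Pgd, a pair chosen after their values were seen, was 4.08, and 2.73 without probe sets prone to cross-hybridization. Rpe, the epimerase of the same branch, was at 1314 against 1047 by its brightest probe set, and its 3 probe sets ran from -4.51 to 0.33.

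Pyruvate dehydrogenase kinases shut pyruvate out of the mitochondrial citrate cycle. Pdk1, an isozyme induced by low oxygen, had 553.6 in CD45-negative cells against 3206 in CD45-positive cells, 5.79-fold lower. Its 4 probe sets ran from -4.32 to -2.01. Pdk3 had 1911 against 490.3, 3.90-fold higher, just under the 4-fold mark, and its probe set is the only one. Pdk2 was under the level in CD45-negative cells, at 76.4 against 180.9. The ratio of Pdk1 to Pdk3 was 22.6-fold lower in CD45-negative cells.

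**Figure D4:**
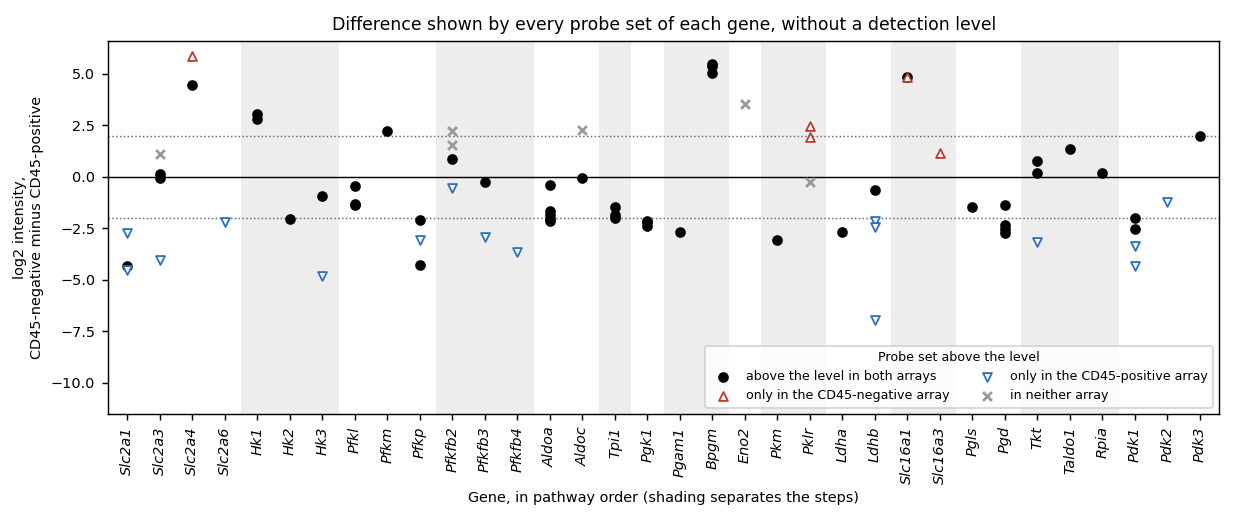
Log2 difference (CD45-negative minus CD45-positive) of each of the 75 probe sets of the 34 genes, with no detection level applied. Symbols tell in which arrays the probe set was above the level, and dotted lines mark 4-fold. Probe sets of Bpgm, Hk1, Slc16a1, Pgk1 and Tpi1 lie close together, while those of Slc2a3, Hk3, Ldhb and Tkt spread over more than 3 units.

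Each array held some signal of the other population's markers, and the members were set beside it. In CD45-positive cells the 5 erythroid markers had 0.979% to 6.83% of their CD45-negative intensity. Bpgm (2.41%), Slc16a1 (3.54%) and Slc2a4 (4.61%) lay in this range, and Hk1 (14.3%) and Pfkm (21.6%) above it. In CD45-negative cells the 6 white cell markers had 1.31% to 5.48% of their CD45-positive intensity. The highest of these shares was that of Cd3e, whose 128.9 in CD45-negative cells lay close to that array's level. Pkm (11.9%), Pgd (14.9%), Ldha (15.4%), Pgam1 (15.7%), Pdk1 (17.3%) and Pgk1 (21.8%) lay above the range. The other 5 members lower by 4-fold were Slc2a1, Pfkp, Hk2, Pfkfb4 and Pfkfb3. Their brightest probe sets were under the CD45-negative array's own level of 127.3, so their shares are not given. How much of each value came from cells of the other population was not tested.

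Genes around these steps gave a mixed picture. Of 26 further isozymes and partners, 24 had a probe set and 9 were measured, of which Bsg (11.1%) was at least 4-fold higher and 2 (22.2%) were lower, beside 8.31% and 16.8% of all measured genes. The 2 lower genes were the muscle enolase Eno3, at 187.6 in CD45-negative cells against 1089 in CD45-positive cells, and H6pd, a glucose 6-phosphate dehydrogenase of the endoplasmic reticulum, at least 3.40-fold lower against the stricter level. Of 8 measured genes that carry or convert pyruvate in mitochondria, 0 differed by 4-fold, and their median was -0.26, equal to that of all genes. Of 7 genes of gluconeogenesis, 3 were measured. Pcx, pyruvate carboxylase, had 2259 in CD45-negative cells and 63.9, under the level, in CD45-positive cells, at least 22.3-fold higher. Pck2, the mitochondrial enzyme that makes phosphoenolpyruvate from oxaloacetate, had 8994 against 937.9, 9.59-fold higher, and its second probe set gave 1.69. The third, G6pc3, a widespread glucose 6-phosphatase, had 109.5 in CD45-negative cells against 371.1 in CD45-positive cells, at least 2.92-fold lower.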

How the data were processed

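RNA of 2 sorted spleen samples was measured on 1 Affymetrix array each, from biotinylated cRNA made with a 3' in vitro transcription kit, per the labels' protocols. The deposited table holds linear intensities for 45037 probe sets. The submitters' processing notes name GCRMA and Partek 6.6 but do not assign the deposited values to either. The arrays' trimmed means (2% left out at each end) were near equal, at 494 and 497. Which step scaled the arrays to each other is not settled by the labels.

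Of the probe sets, 34945 had 1 gene symbol in GEO's platform annotation, 932 had several and 9160 none, and only the first kind was used. All 75 probe sets of the members matched RefSeq (GRCm38.p6) by Entrez identifier, with 0 symbols changed. A gene's probe set with the highest mean log2 intensity stood for it, with no pseudocount and no further normalization. With 1 array per group there was no test, and their number limits the precision. Isozymes were compared by the difference of their log2 differences, in which a probe set's affinity cancels where its values lie well above the level. Where a value is at or near the level it does not, and the contrast then depends on the level. The list held 16 pairs, of which Eno1 with Eno2 had no value. The pairs of Slc2a4, of Pdk3 with Pdk2 and of Taldo1 with Pgd were added after seeing values. Members, lists and thresholds were chosen with earlier results of these data known. All members were named, and of the other lists up to 4 genes past 4-fold. Rpe, G6pc3, Txnip, Arnt and Mlxipl are named as well and fall outside that rule. Scripts were run under Python 3.11.15 with pandas 2.3.3, numpy 2.4.6 and matplotlib 3.10.9 and tested on simulated data.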

Additional observations from a re-analysis of the deposited data

How the results depend on the processing

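No paired analysis was possible because each group had 1 array. The counts of members past 4-fold and 2-fold stayed within 1.5 times under 8 other settings listed with the design and 1 added after seeing the data (centring on genes measured in both arrays). They ranged from 5 to 7 higher and from 8 to 12 lower at 4-fold, and the members' median from -1.31 to -0.48. Quantile normalization moved the median of all genes to 0.01 from -0.26, and the added centring to -0.02. Of 164 values of contrasts under alternatives, 19 moved by more than the probe set SD and 0 changed sign. No value could be had for Slc16a1 minus Slc16a3 with the level set in each array or at the 99th percentile, for Aldoa minus Aldoc and Pfkfb2 minus Pfkfb3 with the mean of probe sets, or for Aldoa minus Aldoc and the Slc2a3 pairs without probe sets prone to cross-hybridization. With the 99th percentile as the level, Pfkfb2 minus Pfkfb3 was 2.06, Pklr minus Pkm 4.30 and Pdk1 minus Pdk2 -2.36. With no level, Pfkfb2 minus Pfkfb3 was 3.78 and Slc16a1 minus Slc16a3 3.64. After quantile normalization, Pfkfb2 minus Pfkfb3 was 1.26, Pfkfb4 minus Pfkfb3 -2.74, Aldoa minus Aldoc -2.60 and Ldha minus Ldhb -3.08, and the single differences of Pfkfb3, Aldoc and Ldhb turned to 0.17, 0.64 and 0.12, with another probe set of Pfkfb3 the brightest. With the mean of probe sets, Tkt and Slc2a3 turned to -0.74 and -0.72, Slc2a1 minus Slc2a3 was -2.94, Hk1 minus Hk3 4.54, Pfkm minus Pfkp 4.66, Pfkl minus Pfkp 1.41, Pfkfb4 minus Pfkfb3 -1.66, Pklr minus Pkm 3.25 and Ldha minus Ldhb -1.08. Low signal limits Slc2a1, Slc2a6, Hk2, Hk3, Pfkp, Pfkfb3, Pfkfb4, Slc16a3, Pklr and Pdk2, each close to or under the detection level in an array. Over the settings, Slc2a6 ran from -2.20 to -0.57 and Pdk2 from -1.24 to -0.17. The causes of these shifts were not tested.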

Other observations

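Of 11 regulators of the pathway, 10 were measured, of which 1 (10.0%) was at least 4-fold higher and 3 (30.0%) lower in CD45-negative cells, beside 8.31% and 16.8% of all measured genes. Their median difference was -1.69, against -0.26 for all measured genes. Hif1a, the oxygen-regulated subunit of hypoxia-inducible factor, had 346.1 in CD45-negative cells against 3942 in CD45-positive cells, 11.4-fold lower. Its 4 probe sets ran from -3.60 to -2.92. Egln1, a prolyl hydroxylase that marks Hif1a for destruction, had 120.1 against 842.6 by its brightest probe set, at least 6.62-fold lower. Its other probe set gave -1.31, under 4-fold. The bound thus does not hold for the gene, and its place among the 3 lower regulators rests on 1 probe set. Mlxip, a glucose-sensing transcription factor, had 139.5 against 1924, 13.8-fold lower. Txnip, which restrains glucose uptake, had 4633 against 17505 (-1.92). The gene at least 4-fold higher was Klf1, the erythroid Krüppel-like factor, at 42791 against 613.9. Arnt, the partner of Hif1a, was at 575.6 against 395.2 (0.54), and Mlxipl, a relative of Mlxip, at 173.3 and 18.1, under the level in CD45-positive cells (0.78). Whether these levels bear on those of the enzymes was not tested.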
